A study of Mus musculus with 5 samples.

Results

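The genes that take glucose into skeletal muscle and trap it there are described here in tibialis anterior (TA) muscle of mice: the transporters Slc2a1, Slc2a3, Slc2a4 and Slc2a12, the hexokinases Hk1 and Hk2, and the Rab GTPase-activating proteins Tbc1d1 and Tbc1d4. They were chosen by name, as 8 of the 17015 rows of the deposited expression table, and all 8 passed the minimum level for testing. The study asked what changes in fast-twitch muscle when RIP140 (encoded by Nrip1), a coregulator that restrains nuclear receptors, is removed. RNA from TA of sedentary male mice aged 8 weeks was sequenced, and 3 WT control and 2 skmNrip1-/- libraries were analysed here. The paper's legend for this comparison gives n = 3 per group, whereas the labels used here give 2 skmNrip1-/- libraries. In skmNrip1-/- mice, Cre recombinase under the myogenin promoter acts in differentiating skeletal muscle cells on floxed Nrip1 alleles. It removes the exon that holds the coding sequence. The paper describes the deficiency as specific to skeletal muscle, and deletion in the other cells of the muscle was not measured here. The floxed line was C57BL/6J and was bred with Cre-expressing C57BL/6JN mice, and the controls were Cre-negative littermates. Values are FPKM, fragments scaled to transcript length and to the depth of the library. How the deposited FPKM were computed is not given in the sources used here, so comparisons between libraries depend on that scaling.

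Glucose enters a resting muscle fiber slowly, through carriers that sit in the surface membrane at all times, of which GLUT1 (Slc2a1) is the best known. Insulin and contraction speed this up by moving GLUT4 (Slc2a4) from intracellular vesicles to the surface. TBC1D4 (also called AS160) and TBC1D1 hold those vesicles back until Akt or AMPK phosphorylates them. Hexokinases then add a phosphate to glucose, which keeps it in the cell, and hexokinase II (Hk2) is the main form of insulin-responsive muscle.

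The FPKM sums ranged from 969144 to 1288040, the mtDNA-encoded genes took 45.4% to 50.7% of the sum in WT control TA and 58.6% to 60.9% in the libraries labelled skmNrip1-/-, and how many fragments stand behind each library is unknown. Nrip1, the targeted gene, had an FPKM of 4.64, 7.69 and 6.55 (WT control replicates 1 to 3) and of 25.3 and 22.5 (labelled skmNrip1-/-, replicates 1 and 2). This value over the whole gene rose under the label of a knockout (log2 fold change 1.94, adjusted p = 0.0261 from limma). The paper places the Cre target sites before the coding exon and past the untranslated end, so deletion takes sequence out of the transcript. The value rose instead, and the reason was not tested. The annotation gives Nrip1 8 transcripts, 4 of them protein-coding with lengths from 432 to 7868 nucleotides. A change in their use cannot be told apart from a change in their number. The paper checked the line by Nrip1 RNA and RIP140 protein in gastrocnemius and heart. The table holds 1 value per gene and cannot separate the deleted exon, so the libraries are named by their labels and every direction rests on them. Whether labels were exchanged was not tested. The mtDNA-encoded share above did not overlap between the groups. The fiber-type markers given below went in both directions, and none of them was called. Muscle is a mixture of cells, and in such bulk values fewer cells of a type cannot be told apart from less RNA per cell. Nothing in the labels says that the libraries of a group came from separate mice. The limma p-values set the difference between groups against the spread between these libraries, pooled in part over genes.

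Slc2a4, Hk2 and Tbc1d1 were the 3 most abundant of these genes in both groups, and their groups overlapped. Hk1, the scarcer hexokinase, was called higher in the libraries labelled skmNrip1-/- (2.25 times the mean FPKM of WT control). Tbc1d4 (2.64 times) and Slc2a12 (1.52 times) had both of those libraries above every WT control library, and Slc2a3 (0.501 times) had both below, but these 3 genes did not pass the adjusted test. Calls needed an adjusted p no higher than 0.05 with a 1.2-fold difference or more, in limma run on log2(FPKM + 0.1) over 12148 genes. In that test, 1 of the 8 genes was called higher, against 0.370% of all genes tested, and 0 were called lower, against 0.0823%. At an unadjusted p of 0.05 or less from limma, 2 of the 8 were higher (Hk1 and Tbc1d4) and 1 was lower (Slc2a3), against 6.57% and 5.33% of all genes tested. The libraries of the groups did not overlap for 3 genes higher and 1 lower, against 15.8% and 14.4% of all genes tested. The median log2 fold change of the 8 genes was 0.07, and that of all genes tested was -0.00. After rescaling to TPM the median of the 8 genes turned to -0.23, while that of all genes tested moved to -0.29. The median of the 8 genes turned to -0.05 without WT control replicate 1, and was 0.17 without WT control replicate 2.

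**Figure D1:**
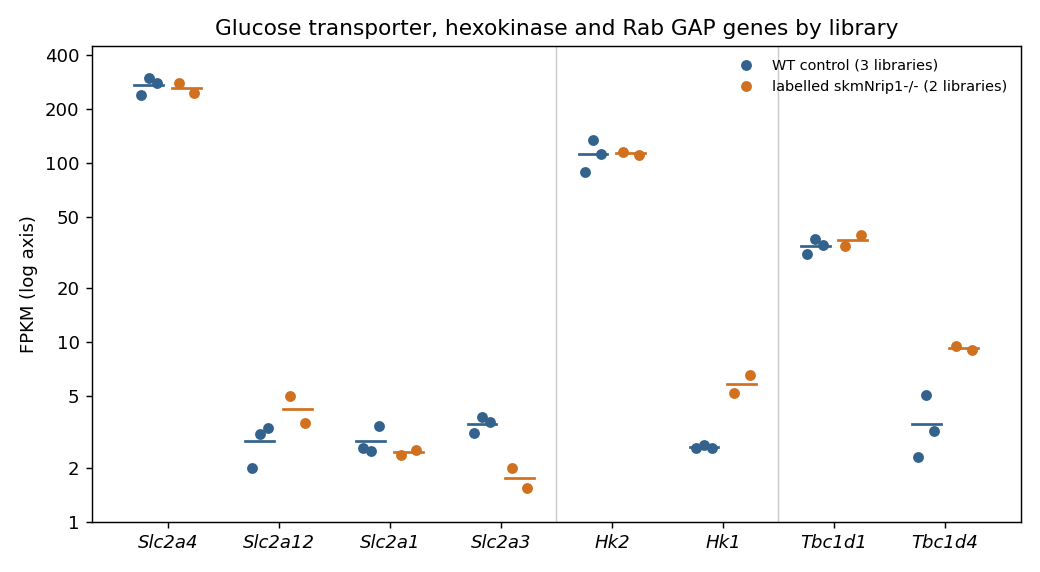
FPKM on a log axis of each of the 8 genes in each library, with WT control in blue and the libraries labelled skmNrip1-/- in orange; short bars are group means. Slc2a4, Hk2 and Tbc1d1 lie above 30 FPKM with overlapping groups, while Hk1, Tbc1d4 and Slc2a12 are higher and Slc2a3 lower in both orange points than in every blue one.

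Among the transporters, Slc2a4 (ENSMUSG00000018566, chromosome 11, 69942539 to 69948188 on GRCm38, minus strand) encodes the insulin-regulated carrier GLUT4. Its FPKM was 240.3, 298.7 and 280.0 (WT control replicates 1 to 3), and 279.5 and 245.1 (labelled skmNrip1-/-, replicates 1 and 2). Both of the latter lay within the range of WT control. The log2 fold change was -0.05 (SE 0.13, limma adjusted p = 0.916), with a 95% interval of the fold from 0.770 to 1.2. Slc2a4 made up 96.8% ± 0.279 (SD, n = 3) of the summed FPKM of the 4 transporters in WT control TA against 96.9% ± 0.164 (SD, n = 2) in the other group. The other 3 carriers were therefore minor transcripts in both groups.

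Slc2a1 (ENSMUSG00000028645, chromosome 4, 119108711 to 119137983, plus strand), the gene of the basal carrier GLUT1, had an FPKM of 2.57, 2.46 and 3.41 (WT control replicates 1 to 3), and 2.36 and 2.51 (labelled skmNrip1-/-, replicates 1 and 2). The groups overlapped, and the log2 fold change was -0.18 (SE 0.18, limma adjusted p = 0.759). The 95% interval of the fold ran from 0.654 to 1.18. GLUT1 is also abundant in endothelium, and the summed FPKM of 8 endothelial marker genes was 93.1 to 100.4 in WT control TA and 83.0 to 95.7 in the other group, with 6 of the 8 below 0 and 0 called (limma, 0 at an unadjusted p of 0.05 or less). The part of these cells in the Slc2a1 values was not tested. Up to 105 bases of Slc2a1 exons overlap the antisense gene Gm12868.

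Slc2a3 (ENSMUSG00000003153, chromosome 6, 122727809 to 122801640, minus strand) encodes GLUT3, a high-affinity carrier best known from neurons and white blood cells. Its FPKM was 3.12, 3.85 and 3.59 (WT control replicates 1 to 3), and 1.99 and 1.54 (labelled skmNrip1-/-, replicates 1 and 2). Every WT control library was above both others. The log2 fold change was -0.96 (standard error 0.17), and it was not called at an adjusted p of 0.110 from limma. Of 8 leukocyte marker genes, 4 reached the minimum level, and their summed FPKM was 28.2 to 43.4 in WT control TA and 31.5 to 36.7 in the libraries labelled skmNrip1-/-, so that the groups overlapped. Ptprc, the pan-leukocyte marker CD45, stayed at or below 0.527 FPKM in all 5 libraries. For 7 Schwann cell and perineurial markers, of which 5 were tested, the sums were 27.2 to 40.5 and 24.3 to 34.5. The part of either cell type in the Slc2a3 values was not tested.

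Slc2a12 (ENSMUSG00000037490, chromosome 10, 22645011 to 22704285, plus strand) encodes GLUT12, a second carrier reported to respond to insulin. Its FPKM was 2.004, 3.084 and 3.328 (WT control replicates 1 to 3), and 5.001 and 3.549 (labelled skmNrip1-/-, replicates 1 and 2). The groups did not overlap, although replicate 2 labelled skmNrip1-/- lay close to WT control replicate 3. The log2 fold change was 0.60 (SE 0.26, limma adjusted p = 0.427), and the interval of the fold, 0.993 to 2.32, included no change. Up to 407 bases of its exons overlap those of Tbpl1 on the opposite strand, and whether the quantification used strand is not given in the sources used here.

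Of the hexokinases, Hk2 overlapped between the groups and Hk1 did not. Hk2 (ENSMUSG00000000628, chromosome 6, 82725025 to 82774454, minus strand) had an FPKM of 89.2, 134.9 and 112.7 (WT control replicates 1 to 3), and 115.4 and 111.2 (labelled skmNrip1-/-, replicates 1 and 2). The WT control libraries surrounded the other group, and the log2 fold change was 0.03 (SE 0.18, limma adjusted p = 0.969) with an interval of the fold from 0.763 to 1.37. Hk1 (ENSMUSG00000037012, chromosome 10, 62268855 to 62379908, minus strand), the form found in most tissues and the main one of brain and red blood cells, had an FPKM of 2.59, 2.67 and 2.57 in WT control replicates 1, 2 and 3. It was 5.19 and 6.56 in replicates 1 and 2 labelled skmNrip1-/-. The mean was 2.61 ± 0.0552 (SD, n = 3) in WT control TA against 5.88 ± 0.968 (SD, n = 2) in the other group, and the groups did not overlap.

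Hk1 rose by a log2 fold change of 1.13 (SE 0.14, limma adjusted p = 0.0394), with an interval of the fold from 1.72 to 2.78. This call was close to the threshold. The log2 fold change stayed between 0.84 and 1.30 in 16 settings, but the gene passed the threshold in 6 of them. The adjusted p was 0.0642 after rescaling to TPM, 0.0623 after rescaling to the same sum without the mtDNA-encoded genes, and 0.0816 to 0.304 when any 1 library was left out. Hk2 was far more abundant, and the sum of Hk1 and Hk2 was 114.9 ± 22.9 FPKM (SD, n = 3) in WT control TA against 119.2 ± 2.03 (SD, n = 2) in the other group. Hk1 accounted for 1.94% to 2.82% of that sum in WT control TA and for 4.31% and 5.57% in replicates 1 and 2 labelled skmNrip1-/-.

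Red blood cell transcripts were measured beside Hk1. All 5 tested of 6 markers had log2 fold changes above 0, from 0.37 for Alas2 to 0.55 for Hbb-bt, 3 of them (the globins Hba-a1, Hba-a2 and Hbb-bs) had an unadjusted p of 0.05 or less, against 6.57% of all genes tested, and 0 were called by limma. Both libraries labelled skmNrip1-/- were above every WT control library for 4 of the 5, against 15.8% of all genes tested. All 4 were globin genes, at 1.39 to 1.42 times the WT control mean, so they need not count as separate changes. The groups overlapped for Alas2, the remaining tested marker. The summed FPKM of the 5 markers was 511.1 to 764.2 in WT control TA and 827.3 to 995.5 in the libraries labelled skmNrip1-/-. The erythroid membrane gene Slc4a1 was at or below 0.0884 FPKM in all 5 libraries. The part of red blood cells in the Hk1 values was not tested. The annotation gives Hk1 20 transcripts, 18 of them protein-coding with lengths from 254 to 4278 nucleotides, and FPKM divides by an estimated transcript length, so a change in the use of these transcripts cannot be told apart from a change in their number. Up to 157 bases of Hk1 exons overlap its antisense transcript Hk1os.

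The promoters of the hexokinases and of Tbc1d4 are printed so that the called hexokinase can be set beside the abundant one, and beside the gene with the largest fold change. The 250 bases before each RefSeq start site (GRCm38.p6), 5′ to 3′ on the gene's own strand, are lower case, with capitals where a motif was matched on either strand. Hk1 has start sites at 62379908 (window chr10:62379909-62380158) and 62340421 (window chr10:62340422-62340671), the Hk2 window is chr6:82774455-82774704 and the Tbc1d4 window is chr14:101609192-101609441, all on the minus strand.
Hk1, upstream start: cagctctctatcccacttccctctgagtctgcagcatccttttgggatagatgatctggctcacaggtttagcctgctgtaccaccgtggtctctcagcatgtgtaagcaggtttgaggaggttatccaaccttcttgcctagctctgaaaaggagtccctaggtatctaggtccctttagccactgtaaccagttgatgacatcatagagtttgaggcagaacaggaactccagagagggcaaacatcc
Hk1, downstream start: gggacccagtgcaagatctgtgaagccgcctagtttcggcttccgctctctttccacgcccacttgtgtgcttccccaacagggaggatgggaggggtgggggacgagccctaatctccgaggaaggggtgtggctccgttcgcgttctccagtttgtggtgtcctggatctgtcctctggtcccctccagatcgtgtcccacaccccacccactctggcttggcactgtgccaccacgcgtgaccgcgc
Hk2: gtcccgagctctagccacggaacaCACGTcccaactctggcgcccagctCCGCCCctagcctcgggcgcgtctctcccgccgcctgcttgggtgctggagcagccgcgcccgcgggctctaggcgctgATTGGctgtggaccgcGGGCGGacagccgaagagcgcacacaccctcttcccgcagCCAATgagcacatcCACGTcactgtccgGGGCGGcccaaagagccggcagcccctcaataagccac
Tbc1d4: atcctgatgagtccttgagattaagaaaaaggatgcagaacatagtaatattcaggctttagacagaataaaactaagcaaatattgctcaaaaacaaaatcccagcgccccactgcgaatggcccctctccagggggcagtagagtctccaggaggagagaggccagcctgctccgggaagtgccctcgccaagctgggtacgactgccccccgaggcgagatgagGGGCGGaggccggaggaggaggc

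The motifs searched were AGGTCA (the half-site of many nuclear receptors, the class of factor that RIP140 restrains), CACGTG (an E-box), ACGTG (the core of a hypoxia response element, contained in that E-box), GGGCGG (a GC box), CCAAT and TATAAA. Neither Hk1 window held any of these 6 motifs. The Hk2 window held 3 GC boxes, 2 CCAAT boxes and 2 matches to ACGTG, and the Tbc1d4 window held 1 GC box. Over 32851 promoter windows of the same length, 32.7% held a GC box, 33.8% a CCAAT box, 16.6% ACGTG, 14% AGGTCA, 6.02% the E-box and 12.4% TATAAA. The reference held windows for 6 of the 8 genes, at 8 start sites, and AGGTCA was in 0 of them. The GC content was 49.6% and 62.8% in the Hk1 windows, 69.6% in Hk2 and 54.8% in Tbc1d4. A match describes letters and is not a binding site.

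Of the Rab GTPase-activating proteins, Tbc1d1 (ENSMUSG00000029174, chromosome 5, 64156305 to 64351486, plus strand), the form that prevails in glycolytic fast muscle, had an FPKM of 31.3, 37.9 and 34.7 (WT control replicates 1 to 3), and 34.5 and 39.6 (labelled skmNrip1-/-, replicates 1 and 2). The groups overlapped, and the log2 fold change was 0.10 (SE 0.13, limma adjusted p = 0.823) with an interval of the fold from 0.870 to 1.32. Tbc1d4 (ENSMUSG00000033083, chromosome 14, 101442360 to 101609191, minus strand), the substrate of Akt in the insulin pathway and the form that prevails in oxidative muscle, had an FPKM of 2.30, 5.10 and 3.18 in WT control replicates 1, 2 and 3. It was 9.52 and 9.07 in replicates 1 and 2 labelled skmNrip1-/-. Both were above every WT control library, which spread more than 2-fold among themselves.

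Tbc1d4 had the largest log2 fold change of the 8 genes in the fit to the deposited values, 1.45 (standard error 0.30), with an interval of the fold from 1.65 to 4.51, and was not called at an adjusted p of 0.152 from limma. Without WT control replicate 2 the log2 fold change was 1.74 and the adjusted p was 0.0453, and over the other 15 settings the adjusted p from limma was 0.0925 to 0.555. Tbc1d4 made up 9.03% ± 2.57 (SD, n = 3) of the summed FPKM of both GTPase-activating genes in WT control TA, against 20.1% ± 2.12 (SD, n = 2) in the other group. Fiber-type markers were measured beside these genes. Of 9 genes of glycolytic fast fibers, 8 had log2 fold changes below 0, with Actn3 lowest at -0.77, and their summed FPKM was 81256 to 112843 in WT control TA and 75567 to 78507 in the other group. Of 9 genes of oxidative and slow fibers, 5 were above 0, from -1.24 for Myl3 to 3.46 for Myl2, and the sum was 4811 to 6576 against 8194 to 8248, most of it from myoglobin (Mb, log2 fold change 0.73). None of these 18 fiber-type genes was called by limma, and 2 were higher (Myl2 and Mb) and 2 lower (Myl3 and Actn3) at an unadjusted p of 0.05 or less, against 6.57% and 5.33% of all genes tested. The part of fiber type in the Tbc1d4 values was not tested. Of 6 fat cell markers, the cells in which TBC1D4 is also known, 4 were tested and their sums overlapped, at 7.81 to 14.2 FPKM and 12.05 to 12.37.

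**Figure D2:**
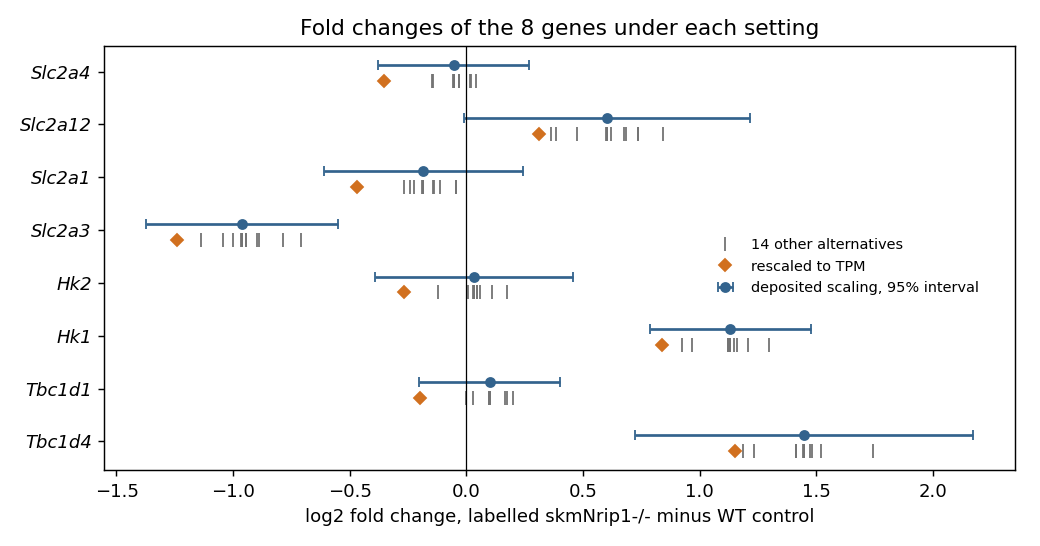
Log2 fold change (libraries labelled skmNrip1-/- minus WT control) of each of the 8 genes, with blue points and bars for the deposited scaling and its 95% interval, orange diamonds for values rescaled to TPM and gray ticks for the other 14 alternatives. The changes of Hk1, Tbc1d4 and Slc2a12 stay above 0 and those of Slc2a3 and Slc2a1 below 0 in all of them, while Slc2a4, Hk2 and Tbc1d1 cross 0.

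Ranked by mean FPKM, the order in WT control TA was Slc2a4, Hk2, Tbc1d1, Tbc1d4, Slc2a3, Slc2a1, Slc2a12 and Hk1. The first 3 were separated from each other and from the rest in every library. From Tbc1d4 down, each gene's range overlapped that of the next, so neighbours in this part of the order did not differ beyond the spread between libraries. Across it, Slc2a3 was above Hk1 in every WT control library. In the libraries labelled skmNrip1-/- the order was Slc2a4, Hk2, Tbc1d1, Tbc1d4, Hk1, Slc2a12, Slc2a1 and Slc2a3, and no neighbours overlapped, with only 2 libraries to define each range.

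Ratios of 2 genes in the same library do not depend on how libraries are scaled to each other. The ratio of Hk2 to Hk1 was 34.4, 50.5 and 43.9 (WT control replicates 1 to 3), and 22.2 and 16.9 (labelled skmNrip1-/-, replicates 1 and 2), a log2 difference of -1.13. The ratio of Tbc1d1 to Tbc1d4 was 13.6, 7.43 and 10.9 against 3.63 and 4.37, a log2 difference of -1.38. The ratio of Slc2a4 to Slc2a12 was 119.9, 96.9 and 84.1 against 55.9 and 69.1, a log2 difference of -0.68. In these 3 ratios every WT control library was above both others. The ratio of Slc2a4 to Slc2a1 overlapped, at 93.6, 121.3 and 82.2 against 118.2 and 97.5. An exact two-sided permutation test of 3 libraries against 2 has 10 splits and a smallest possible p of 0.2, which the first 3 ratios reached (adjusted p = 0.333 over 5 exact permutation tests). The same test gave p = 0.6 for Slc2a4 to Slc2a1 and p = 0.8 for the share of Slc2a4 among the transporters, an exact permutation test in both cases. This design cannot reach 0.05.

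**Figure D3:**
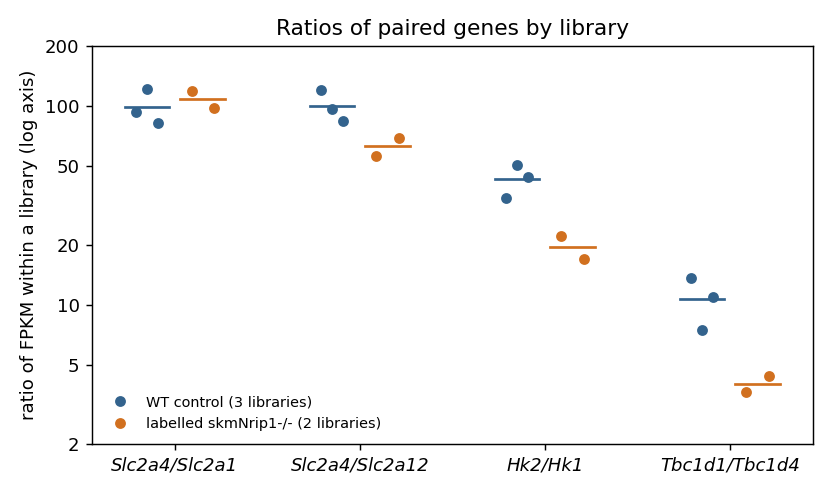
Ratio of the FPKM of 2 genes within each library on a log axis, with WT control in blue, the libraries labelled skmNrip1-/- in orange and short bars for group means. Hk2 to Hk1 has group means of 42.9 and 19.6 and Tbc1d1 to Tbc1d4 of 10.7 and 3.996, whereas Slc2a4 to Slc2a1 overlaps.

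Of 10 other transporters, 9 had a row and 2 reached the minimum level: Slc2a8, an intracellular carrier, had a log2 fold change of -0.31 and Slc5a2, a sodium-coupled carrier, of -0.24, with overlapping groups. Neither direction was stable, since Slc2a8 was at 0.12 without skmNrip1-/- replicate 1 and Slc5a2 at 0.49 without skmNrip1-/- replicate 2. Of the other phosphorylating enzymes, Adpgk, which uses ADP in place of ATP, had a log2 fold change of -0.07, and of 0.03 without skmNrip1-/- replicate 2. Hk3, a hexokinase of white blood cells, was at or below 0.113 FPKM in all 5 libraries.

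The machinery that moves GLUT4 vesicles was tested with 20 of 21 genes. Of these, 0 were called by limma, 1 was higher (Rab14, log2 fold change 0.29) and 2 lower (Exoc7 and the sorting receptor Sort1, -0.42) at an unadjusted p of 0.05 or less, against 6.57% and 5.33% of all genes tested, and the median log2 fold change was -0.03. The libraries of the groups did not overlap for 6 of the 20 genes higher and 5 lower, where 15.8% and 14.4% of all genes tested were apart in this way. The lowest was Exoc7, a subunit of the exocyst that tethers vesicles at the surface, with an FPKM of 37.7, 25.9 and 38.6 (WT control replicates 1 to 3) and 17.4 and 17.1 (labelled skmNrip1-/-, replicates 1 and 2). Its log2 fold change of -0.96 was not called (limma adjusted p = 0.127). The highest was the small GTPase Rab13, at 0.55. Exoc7 passed the threshold after rescaling to TPM (adjusted p = 0.0485 from limma) and without WT control replicate 2 (adjusted p = 0.0367).

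Of 12 genes around TBC1D1 and TBC1D4 (kinases of the Akt and AMPK pathways, the Ywha adaptors that bind phosphorylated proteins, and Nos1), 0 were called (limma), 0 had an unadjusted p of 0.05 or less, and the median log2 fold change was -0.06. The extremes were Prkaa1, the AMPK alpha 1 subunit, at 0.28 and Nos1, the neuronal nitric oxide synthase of muscle, at -0.31. Txnip, an arrestin-family protein that promotes removal of GLUT1 and GLUT4 from the surface, had an FPKM of 147.6, 221.1 and 251.3 (WT control replicates 1 to 3) and 348.6 and 338.3 (labelled skmNrip1-/-, replicates 1 and 2). Both of the latter were above every WT control library, as for 15.8% of all genes tested. The log2 fold change of 0.77 was not called (limma unadjusted p = 0.0119, adjusted p = 0.271). Of all genes tested, 6.57% were higher at an unadjusted p of 0.05 or less. Its relative Arrdc4 had a log2 fold change of 0.21 with overlapping groups.

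Downstream, 4 genes tied to hexokinase docking at mitochondria had a median log2 fold change of 0.10, from -0.08 for Tigar, a fructose bisphosphatase that can bind hexokinase II, to 0.27 for Vdac1, the outer membrane channel on which hexokinases dock. Of 10 genes that use or return glucose 6-phosphate, the median was -0.04, from -0.48 for Slc37a4, the glucose 6-phosphate translocase of the endoplasmic reticulum, to 0.25 for the phosphoglucomutase Pgm2. In both lists 0 genes were called by limma, and 1 (Slc37a4, lower) had an unadjusted p of 0.05 or less. Of 10 genes for transcription factors and cofactors known to act on Slc2a4, 9 were tested, with a median of -0.03, from -0.26 for Klf15 to 0.34 for Hdac4, and with 0 called and 0 at an unadjusted p of 0.05 or less (limma).

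**Figure D4:**
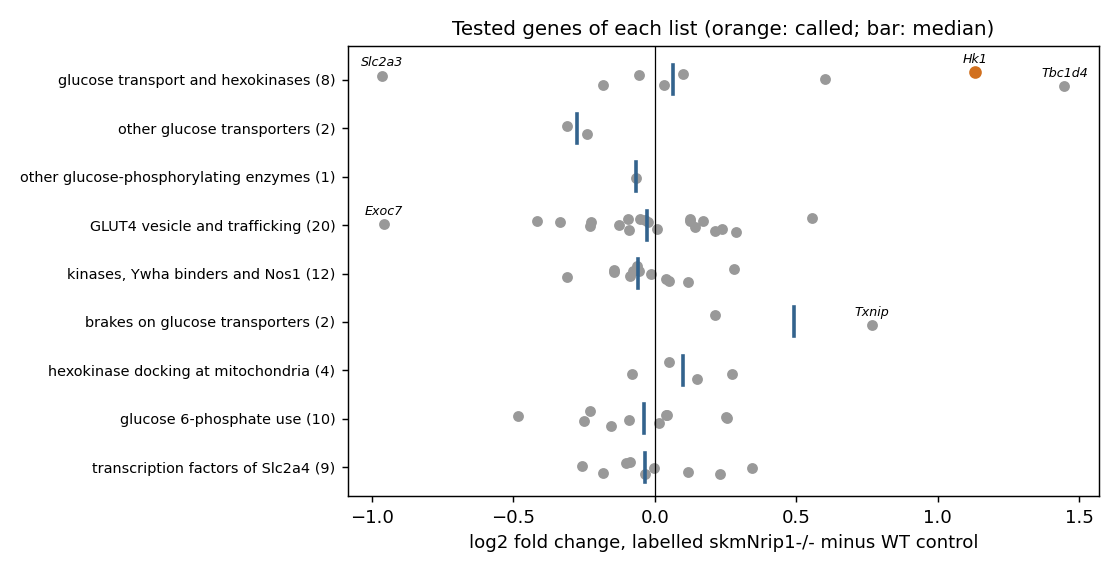
Log2 fold change (libraries labelled skmNrip1-/- minus WT control) of each tested gene of 9 lists, 1 point per gene with the number tested in parentheses, orange for called genes and a blue bar for the median. Hk1 is the called gene among those shown, and most other genes lie within 0.5 of 0.

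The genes whose level followed Slc2a4 and Hk2 most closely over the 5 libraries were taken from 4555 genes averaging 10 FPKM or more. For Slc2a4 they were Stxbp3, a syntaxin-binding protein of GLUT4 vesicle fusion (Pearson r = 0.994), Ecd (r = 0.993) and Safb (r = 0.991). For Hk2 they were Qars (r = 0.993), Lmo7 (r = 0.991) and Arnt, the partner of hypoxia-inducible factors (r = 0.990). All of these points come from the same 5 libraries and share their depth and scaling, and the values describe likeness only.

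The FPKM sums were 969144 to 1144710 in WT control TA, and 1288040 and 1286250 in replicates 1 and 2 labelled skmNrip1-/-. Under the rescaling to TPM, which sets the sum of every library to the same value, the median log2 fold change of all genes tested moved to -0.29. Calls over all genes were then 29 higher and 59 lower, in place of 45 and 10. On that scale Hk1 was at 0.84, Tbc1d4 at 1.15, Slc2a12 at 0.31 and Slc2a3 at -1.24. The signs of Hk2 and Tbc1d1 flipped, to -0.27 and -0.20, and Slc2a4 was at -0.35. Prkaa1, Vdac1, Pgm2 and Arrdc4 also turned from above to below 0, to -0.01, -0.03, -0.02 and -0.07. After rescaling to the same sum without the mtDNA-encoded genes, the median of all genes tested was 0.07.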

How the data were processed

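RNA of TA muscle was made into NEBNext Ultra libraries, per the labels, and sequenced. Per the submitters' processing notes and the methods, the authors quantified the reads with Salmon 1.10.2 on mm10 and summarized them to genes with tximport. They deposited FPKM for each gene and library, whose computation and annotation release are not given in the sources used here. The table as deposited further holds, from the authors' DESeq2 1.44.0 comparison, log2 fold changes and adjusted p-values, and these were not used. Each column was assigned to a library by its label, and all per-sample columns were used.

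The 3 WT control and 2 skmNrip1-/- libraries were compared in limma 3.58.1 (R 4.3.3) by lmFit and trended eBayes, using log2(FPKM + 0.1) and no covariates. Genes averaging 0.5 FPKM or more entered, and p-values were adjusted over all of them by Benjamini-Hochberg. Fold changes on this scale understate those of scarce genes. FPKM are not counts, so limma replaced the study's count test, the depth stays unknown and counting intervals are left out. Ratios were tested with exact permutation in scipy 1.17.1. Tables and plots used Python 3.11.15, pandas 2.3.3, numpy 2.4.6 and matplotlib 3.10.9.

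Positions come from GENCODE M21 (GRCm38), which holds 16996 of the 17015 gene IDs, and promoters from RefSeq. The genes named are the 8 members, Nrip1, the highest, lowest and called genes of each list, and the 3 genes most like Slc2a4 and Hk2. Ptprc, Hk3 and Slc4a1 were added for their low values, Mb for its share of a sum, and Rab14, Sort1 and globins to name small counts, after their values were seen. The members and lists were chosen with earlier results of these data known. The limma step was tested on simulated data. A result of the gene lists is not reported here.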

Additional observations from a re-analysis of the deposited data

How the results depend on the processing

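Alternatives changed the pseudocount (1 or 0.01), the minimum (none or 1 FPKM), the scaling (3 ways), the eBayes options (no trend, robust) or the fold threshold (none), blocked on replicate number, or left out 1 library. None of the 8 genes was called lower in any of them. The count of the 8 genes called higher, 1 with the deposited scaling, fell to 0 without a minimum, after rescaling to TPM or to the same sum without mtDNA-encoded genes, in eBayes without trend and with the replicate block. It ranged from 0 to 1 when 1 library was left out, and the 1 gene called, without WT control replicate 2, was Tbc1d4 in place of Hk1. Over all genes, 45 higher and 10 lower became 29 and 59 after rescaling to TPM, 22 and 3 in eBayes without trend, and 18 and 4 with the replicate block, and leaving out 1 library gave 6 to 51 higher and 2 to 15 lower. Called genes in the other pathway lists, 0 with the deposited scaling, numbered 1 (Exoc7) after rescaling to TPM and 0 to 1 when 1 library was left out, with 1 (Exoc7) without WT control replicate 2. The 5 within-library measures moved by less than their spread between libraries, although those of Slc2a4 to Slc2a1 and of the Slc2a4 share changed sign without some libraries. Rescaling divides each library by its own factor, and the cause of the other changes was not tested. Whether same-numbered libraries share more than a number is not given in the labels. Their deviations from the group means correlated at 0.0647 and 0.0952 over genes. These values cannot decide it, since the 2 skmNrip1-/- libraries deviate from their mean by equal amounts in opposite directions. The block leaves WT control replicate 3 without a partner. With 3 and 2 libraries, calls near the threshold depend on each library.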
